A study of Mus musculus with 6 samples.

Results

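The genes of Toll-like, NOD-like and nucleic acid sensing are described here in cultured aortic smooth muscle cells of Pdk4fl/fl and Pdk4SMKO mice. The 37 genes were picked by name, from the receptors down to the IKK and TAK1 complexes. Of these, 36 have a row in the count table of 41721 genes, and Tlr1 was not analysed here. Pattern recognition receptors are the proteins by which a cell detects microbial or misplaced molecules. Toll-like receptors sit in the plasma membrane or in endosomes and signal through the adaptors MyD88 and TRIF. NOD-like receptors read peptidoglycan fragments and other danger signals in the cytosol. RNA sensors in the cytosol report through MAVS and the kinases TBK1 and IKKε. The routes meet at the TAK1 and IKK kinase complexes, which switch on NF-kB, and at interferon regulatory factors. Vascular smooth muscle cells carry several of these receptors, and their activity is studied in aneurysm of the abdominal aorta.

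The libraries came from mouse aortic smooth muscle cells (MASMCs), vascular smooth muscle cells grown out of the abdominal aorta. They compare 3 Pdk4fl/fl with 3 Pdk4SMKO libraries. Both genotypes had been treated with Ang II, the hypertensive peptide angiotensin II, at 1 μM for 48 h. Pdk4 encodes a kinase that restrains the entry of pyruvate into the tricarboxylic acid cycle. In Pdk4fl/fl mice exons 4 to 6 of Pdk4 are flanked by loxP sites, and Pdk4SMKO mice carry in addition Myh11-CreERT2, a recombinase driven by a smooth muscle promoter and switched on by tamoxifen, which was given to both genotypes over 5 days. Cells were taken from mice 10 weeks old, male according to the methods, and used at passages 4 to 8, so the libraries describe cultured cells, and the Cre reached cells in which the Myh11 promoter was active when tamoxifen was given. No library without Ang II was analysed here, so the comparison gives the effect of genotype under Ang II and not the response to Ang II. The study calls the libraries biological replicates, but the labels do not say whether the 3 libraries of a genotype came from separate mice, and p-values then measure only the spread between these libraries.

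Each library held 16526044 to 22481670 counts. Pdk4 was counted 570, 639 and 421 times in Pdk4fl/fl and 110, 182 and 141 times in Pdk4SMKO, and its log2 fold change was -2.34 (SE 0.22, edgeR's quasi-likelihood test, Benjamini-Hochberg adjusted p = 4.5e-06). Between genotypes the libraries stood far apart. Of 14085 genes tested, 3733 were called lower (26.5%) and 4616 higher (32.8%) in Pdk4SMKO, where a call needs a change of at least 2-fold at an adjusted p below 0.05. Libraries of the genotypes did not overlap, with Pdk4SMKO below, in 38.3% of the genes and, with Pdk4SMKO above, in 43.5%. The smooth muscle genes were not uniformly high in either genotype: Acta2 was higher in Pdk4SMKO (log2 fold change 1.59), Tagln lower (-2.26), and Myh11 had 8, 10 and 10 counts in Pdk4fl/fl and 62, 44 and 46 in Pdk4SMKO.

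Of the 30 sensing genes that passed the filter on low counts, 15 rose, 5 fell and 10 were not called. As shares of the tested members, 50% were higher, against 32.8% of all genes tested, and 16.7% lower, against 26.5%. All 20 calls had libraries of the genotypes apart, and so did 8 genes that were not called: 10 of the 30 lay apart with Pdk4SMKO below and 18 with Pdk4SMKO above. Tlr5, Tlr6, Tlr7 and Nlrx1 reached the filter only through Pdk4SMKO and could only come out higher, which leaves 11 higher and 5 lower among the 26 others. The median log2 fold change was 1.03 over the tested members and 0.12 over all genes tested. The genes that fell were Tlr2, the TRIF gene Ticam1, Nod2, its kinase Ripk2, and Chuk, and those that rose included Tlr3, Tlr4, Cd14, Myd88, Irak4, Nod1 and Ikbkg.

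**Figure D1:**
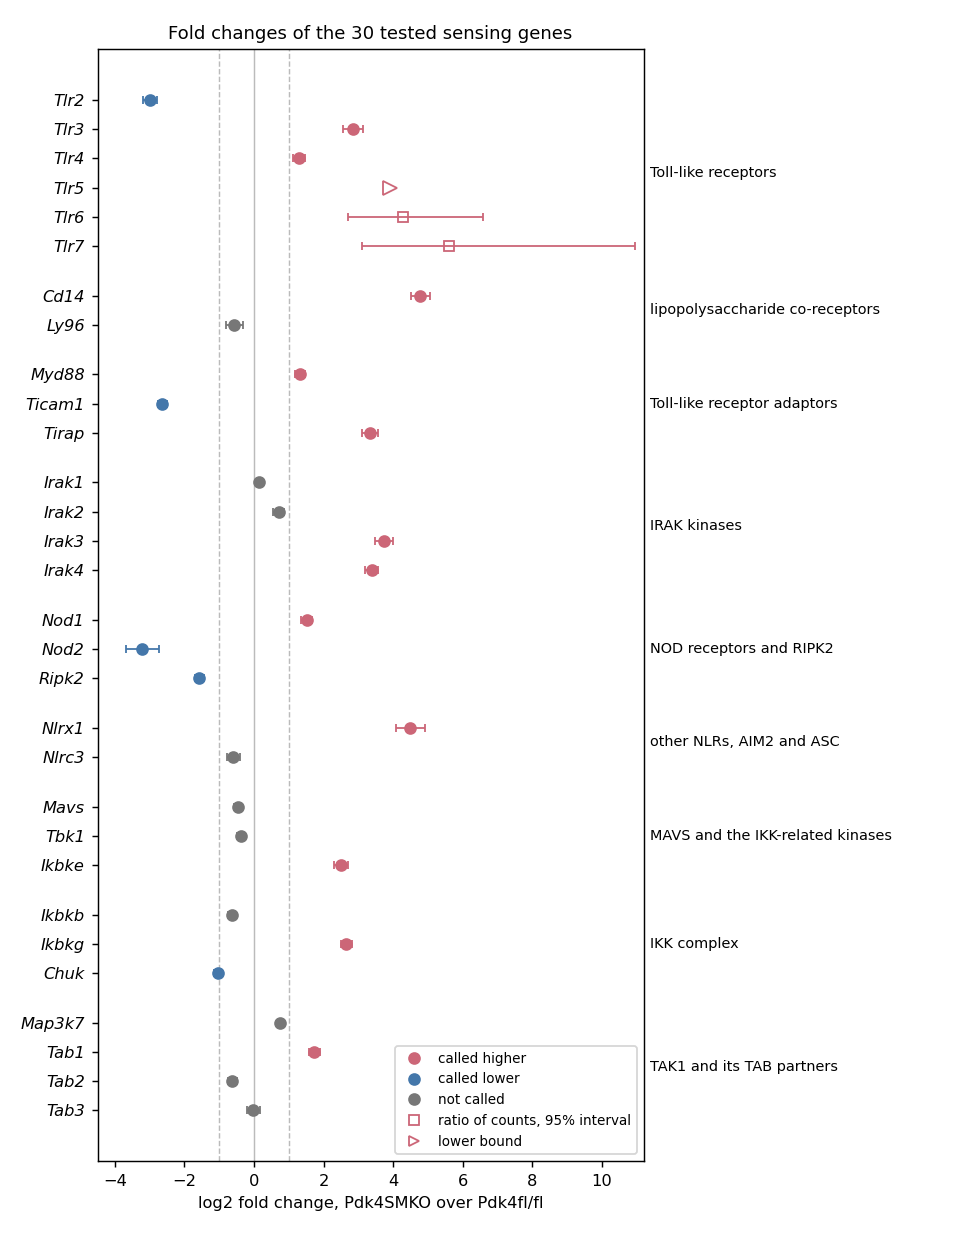
Log2 fold change of Pdk4SMKO over Pdk4fl/fl for the 30 tested genes, grouped by role, with 3 libraries per genotype. Filled circles are edgeR estimates with their SE, open squares are ratios of summed counts with 95% counting intervals, the open triangle is a lower bound, and the dashed lines mark a fold change of 2. Tlr2, Ticam1, Nod2, Ripk2 and Chuk lie left of the lower line, and 15 genes lie right of the upper one.

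Among the Toll-like receptors 1 of 6 tested genes fell (16.7%, against 26.5% of all genes tested) and 5 rose (83.3%, against 32.8%). Of the 5 that rose, Tlr5, Tlr6 and Tlr7 reached the filter only through Pdk4SMKO and could only come out higher. Tlr2 encodes the receptor for bacterial lipoproteins, and lies in the table at chr3:86842477-86847972 on the minus strand. Its level was 98.2, 91.2 and 78.6 CPM, counts scaled to the size of the library, in Pdk4fl/fl and 7.93, 12.8 and 12.8 CPM in Pdk4SMKO. Every Pdk4SMKO library was far below every Pdk4fl/fl library, at a log2 fold change of -3.00 (SE 0.20, edgeR's quasi-likelihood test, Benjamini-Hochberg adjusted p = 3.8e-07). Tlr4 encodes the lipopolysaccharide receptor and moved the other way, from 27.2, 26.3 and 32.5 CPM to 55.8, 72.2 and 83.7 CPM. Its log2 fold change was 1.30 (SE 0.17, edgeR's quasi-likelihood test, Benjamini-Hochberg adjusted p = 4.7e-05). Tlr3, the endosomal receptor for RNA duplexes, was read 19, 27 and 16 times in Pdk4fl/fl and 279, 149 and 183 times in Pdk4SMKO. The libraries did not overlap, and the log2 fold change was 2.84 (SE 0.28, edgeR's quasi-likelihood test, Benjamini-Hochberg adjusted p = 6.5e-06).

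The other receptors of the family were close to absent in Pdk4fl/fl. Tlr5, the flagellin receptor, had 0 counts in each Pdk4fl/fl library and 74, 58 and 55 in Pdk4SMKO. Set against a floor of 3 counts in each Pdk4fl/fl library, its mean CPM was at least 14.9-fold higher in Pdk4SMKO (edgeR's quasi-likelihood test, Benjamini-Hochberg adjusted p = 1.3e-05). Because Tlr5 reached the filter only through Pdk4SMKO, this p-value is no support for the direction. Tlr6, which pairs with Tlr2, was counted 2, 0 and 1 times in Pdk4fl/fl and 23, 23 and 34 times in Pdk4SMKO, and the ratio of summed CPM was 19.6 with a 95% counting interval of 6.46 to 96.9. For Tlr7, an endosomal RNA receptor, the counts were 1, 0 and 0 against 22, 21 and 24, with a ratio of 49.2 (8.53 to 1970). Single libraries moved these values: the fitted log2 fold change was 4.15 for Tlr6, but 5.04 without Pdk4fl/fl replicate 1 and 3.51 without replicate 2, and 5.23 for Tlr7, but 7.34 without Pdk4fl/fl replicate 1, whose 1 count is the only one in that genotype. The counting intervals cover counting error only. Tlr8 stayed under the filter, with 0 counts in every Pdk4fl/fl library and 22, 9 and 2 in Pdk4SMKO, so that 1 of the 3 Pdk4SMKO libraries was itself within the floor. Tlr9, the receptor for CpG DNA, had 1, 3 and 2 counts against 4, 0 and 1, and no difference was detectable at this depth.

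**Figure D2:**
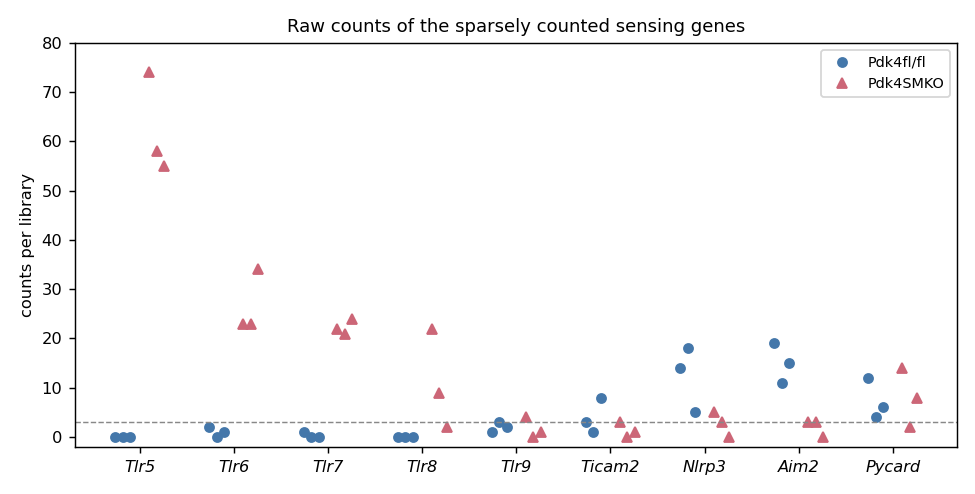
Raw counts per library of the 9 genes that were sparsely counted in at least 1 genotype, with Pdk4fl/fl as circles and Pdk4SMKO as triangles, and a dashed line at 3 counts. Tlr5, Tlr6 and Tlr7 sit at 0 to 2 counts in Pdk4fl/fl and at 21 to 74 in Pdk4SMKO, while Nlrp3 and Aim2 sit at 5 to 19 in Pdk4fl/fl and at 0 to 5 in Pdk4SMKO.

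Scaled to gene length, the make-up of the family differed between genotypes. Tlr2 held 86.2%, 85.7% and 81% of the summed reads per kb of the 8 receptors in Pdk4fl/fl, and 15.5%, 21.1% and 18.8% in Pdk4SMKO. Tlr4 held 14.6% ± 2.83 (SD, n = 3) in Pdk4fl/fl and 62.6% ± 3.81 (SD, n = 3) in Pdk4SMKO, and was the leading receptor in every Pdk4SMKO library. Tlr3 went from 0.898% ± 0.1 to 11.8% ± 4.68 (SD, n = 3), with Pdk4SMKO replicate 1 highest at 17.2%. The summed level of the 8 receptors was 37.8, 35.3 and 32.2 CPM per kb in Pdk4fl/fl and 16.9, 20.1 and 22.5 CPM per kb in Pdk4SMKO. The genotypes did not overlap in the sum or in the shares of Tlr2, Tlr3 and Tlr4, each with an exact two-sided permutation p of 0.1, the smallest that 3 libraries against 3 can give. Unlike the shares, the sum depends on how libraries are scaled, and other scalings of it were not computed. Scaling by library size alone raised log2 fold changes over all genes by a median of 0.60.

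**Figure D3:**
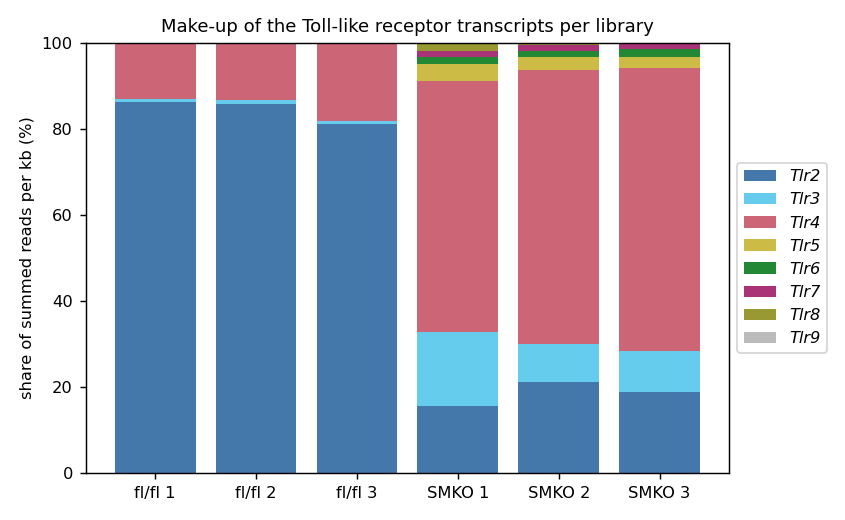
Stacked bars of the share of each Toll-like receptor in the summed reads per kb of the 8 receptors, in percent, for each of the 6 libraries. Tlr2 fills 81% to 86.2% of the bar in Pdk4fl/fl and 15.5% to 21.1% in Pdk4SMKO, where Tlr4 fills 58.4% to 65.8%.

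Promoter sequences are shown for Tlr2, which fell, and for Tlr3 and Myd88, which rose, because each holds a match to a motif searched. They are the 250 bases before the annotated start from RefSeq, genome build GRCm38.p6, all on the minus strand and written 5′ to 3′, and this build is not that of the table's coordinates. Capitals mark the NF-kB consensus in Tlr2 and Tlr3 and the interferon response letters GAAANNGAA in Myd88. The windows are chr3:83841609-83841858 for Tlr2, chr8:45410381-45410630 for Tlr3 and chr9:119340019-119340268 for Myd88.
Tlr2: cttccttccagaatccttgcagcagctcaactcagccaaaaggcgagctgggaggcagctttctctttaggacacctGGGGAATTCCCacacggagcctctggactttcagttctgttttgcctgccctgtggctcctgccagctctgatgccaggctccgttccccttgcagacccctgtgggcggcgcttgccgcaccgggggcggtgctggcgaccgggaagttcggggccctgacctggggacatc
Tlr3: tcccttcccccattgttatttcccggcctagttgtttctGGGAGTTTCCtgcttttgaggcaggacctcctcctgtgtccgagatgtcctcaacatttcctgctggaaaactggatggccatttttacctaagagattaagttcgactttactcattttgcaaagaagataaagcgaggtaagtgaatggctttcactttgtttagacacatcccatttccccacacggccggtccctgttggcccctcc
Myd88: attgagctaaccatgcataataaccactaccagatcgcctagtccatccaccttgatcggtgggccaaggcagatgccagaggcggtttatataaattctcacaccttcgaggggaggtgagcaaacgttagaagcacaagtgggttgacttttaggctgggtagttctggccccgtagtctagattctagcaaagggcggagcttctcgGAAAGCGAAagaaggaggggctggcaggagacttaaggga
In Tlr2 a pair of overlapping matches spanned 173 to 163 bases before the start, in Tlr3 the match lay 211 to 202 bases before it, and in Myd88 40 to 32 bases before it. Of the 37 genes 29 had a promoter in the RefSeq table, and the search covered both strands. The NF-kB consensus was found in 5 of the 29 (17.2%: Tlr2, Tlr3, Irak1, Nlrp3 and Map3k7), against 8.23% of 27025 promoters. GAAANNGAA was found in 4 (13.8%: Tlr6, Tlr8, Myd88 and Irak3), against 8.18%, and the AP-1 letters TGANTCA in 2 (6.9%: Tlr9 and Ikbkg), against 7.82%. By call, the NF-kB consensus was in 1 of 4 promoters of genes that fell and 1 of 11 of genes that rose, and GAAANNGAA was in 0 of 4 and 3 of 11. A match is a run of letters and not a measured binding site.

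The co-receptors for lipopolysaccharide differed, in that Cd14 rose and Ly96 was not called. Cd14, which hands lipopolysaccharide to the Tlr4 complex, was read 32, 28 and 17 times in Pdk4fl/fl and 736, 1016 and 1103 times in Pdk4SMKO. Its level rose from 1.65 ± 0.434 to 45.6 ± 11.7 CPM (SD, n = 3), a log2 fold change of 4.78 (SE 0.27, edgeR's quasi-likelihood test, Benjamini-Hochberg adjusted p = 1.4e-07). Per kb, Cd14 was the highest of the 36 genes in Pdk4SMKO, at 29 CPM per kb, and rank 20 in Pdk4fl/fl, at 1.05 CPM per kb. Ly96, which encodes MD-2, the part of the Tlr4 complex that binds lipopolysaccharide, had 105, 152 and 147 counts against 160, 94 and 124. Its libraries overlapped between genotypes (log2 fold change -0.57, SE 0.24, edgeR's quasi-likelihood test, Benjamini-Hochberg adjusted p = 0.0537).

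Of the adaptors Ticam1 fell while Myd88 and Tirap rose. Ticam1 encodes TRIF, the adaptor of Tlr3 and Tlr4, and lies at chr17:60214349-60224818 on the minus strand in the table. It measured 130, 146 and 124 CPM in Pdk4fl/fl and 22.6, 21.9 and 19.5 CPM in Pdk4SMKO. The log2 fold change was -2.64 (SE 0.13, edgeR's quasi-likelihood test, Benjamini-Hochberg adjusted p = 6.2e-08). Per kb it was the highest of the 36 genes in Pdk4fl/fl, at 44.5 CPM per kb, and rank 14 in Pdk4SMKO, at 7.12. Myd88, the adaptor shared by most Toll-like receptors, rose from 14.1, 14.7 and 12.8 CPM to 31.8, 37.5 and 35.5 CPM (log2 fold change 1.33, SE 0.14, edgeR's quasi-likelihood test, Benjamini-Hochberg adjusted p = 1.1e-05). Tirap, the bridge that brings MyD88 to Tlr2 and Tlr4, rose from 2.27 ± 0.749 to 22.5 ± 0.619 CPM (SD, n = 3), a log2 fold change of 3.33. Ticam2, the bridge that brings TRIF to Tlr4, had 3, 1 and 8 counts against 3, 0 and 1 and was not tested. Within each library, the log2 ratio of Ticam1 to Myd88 per kb was 2.99, 3.09 and 3.06 in Pdk4fl/fl and -0.71, -0.99 and -1.08 in Pdk4SMKO, so that the more abundant of the pair changed from Ticam1 to Myd88 in every library.

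**Figure D4:**
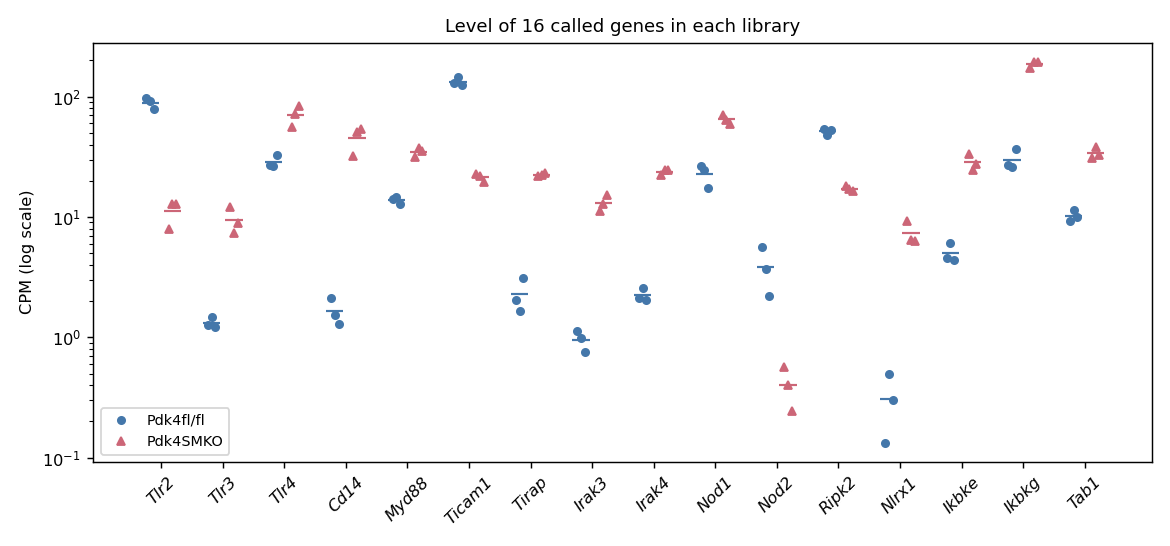
CPM on a log axis for 16 of the 20 called genes in each library, with Pdk4fl/fl as circles, Pdk4SMKO as triangles and the mean of 3 libraries as a bar. In all 16 the libraries of the genotypes are apart, with Tlr2, Ticam1, Nod2 and Ripk2 lower in Pdk4SMKO.

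Downstream of MyD88 the IRAK kinases split into a pair that rose and a pair that was not called. Irak4, which starts the cascade, was read 32, 47 and 27 times in Pdk4fl/fl and 509, 498 and 498 times in Pdk4SMKO (log2 fold change 3.39, SE 0.19, edgeR's quasi-likelihood test, Benjamini-Hochberg adjusted p = 1.1e-07). Irak3, known as IRAK-M and as a brake on the pathway, was read 17, 18 and 10 times against 257, 255 and 313 times (log2 fold change 3.75, SE 0.26, edgeR's quasi-likelihood test, Benjamini-Hochberg adjusted p = 5.1e-07). Irak1 measured 84.8 ± 3.98 and 93.6 ± 2.96 CPM (SD, n = 3) and had an adjusted p of 0.25 by edgeR's quasi-likelihood test. Irak2 measured 24.9 ± 4.12 and 40.8 ± 0.988 CPM, with a log2 fold change of 0.71 under the limit of a fold change of 2, and 1.31 when libraries were scaled by their size alone. The log2 ratio of Irak3 to Irak1 within a library was 3.64 higher in Pdk4SMKO.

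The peptidoglycan receptors moved in opposite directions. Nod1, which reads peptides of mainly Gram-negative bacteria, rose from 26.4, 24.4 and 17.5 CPM to 70.3, 64.5 and 59.8 CPM (log2 fold change 1.51, SE 0.17, edgeR's quasi-likelihood test, Benjamini-Hochberg adjusted p = 1.4e-05). Nod2, which reads muramyl dipeptide, was sparsely counted, with 84, 67 and 29 counts in Pdk4fl/fl and 13, 8 and 5 in Pdk4SMKO. Its log2 fold change was -3.21 (SE 0.47, edgeR's quasi-likelihood test, Benjamini-Hochberg adjusted p = 0.000114), the largest fall among the tested members. The study itself names this gene on these samples. Ripk2, the kinase through which both receptors signal, fell from 53.7, 48.2 and 53 CPM to 18.1, 17.1 and 16.5 CPM (log2 fold change -1.58, SE 0.13, edgeR's quasi-likelihood test, Benjamini-Hochberg adjusted p = 1.4e-06). With scaling by library size alone its log2 fold change was -0.97, just under the limit. The log2 ratio of Nod2 to Nod1 per kb was -2.62 ± 0.38 in Pdk4fl/fl and -7.37 ± 0.50 in Pdk4SMKO (SD, n = 3).

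The inflammasome genes were too sparse for the filtered test. Nlrp3, the sensor at the head of the best known inflammasome, had 14, 18 and 5 counts in Pdk4fl/fl and 5, 3 and 0 in Pdk4SMKO, and Aim2, the cytosolic DNA sensor, had 19, 11 and 15 against 3, 3 and 0. In CPM, Pdk4fl/fl was 6.3 times Pdk4SMKO for Nlrp3 (95% counting interval 2.89 to 15.7) and 10.2 times for Aim2 (4.35 to 29.3). In a fit of all 24025 genes with a count, without the filter, both were lower in Pdk4SMKO, with log2 fold changes of -2.52 (SE 0.79, edgeR's quasi-likelihood test, Benjamini-Hochberg adjusted p = 0.00499) and -3.26 (SE 0.78, edgeR's quasi-likelihood test, Benjamini-Hochberg adjusted p = 0.000255). Leaving out Pdk4SMKO replicate 1 let Nlrp3 pass the filter at a log2 fold change of -3.27. Without Pdk4SMKO replicate 2 or 3, or Pdk4fl/fl replicate 3, Nlrp3 also passed, at -2.89 to -2.02. Without Pdk4fl/fl replicate 1 or 2 it stayed under the filter. The fit without the filter called 6 of 36 members lower (16.7%), against 18.1% of all its genes. The study names Nlrp3, Aim2 and Nod2 on these samples, so their direction is not independent evidence. Pycard, which encodes the shared adaptor ASC, had 12, 4 and 6 counts against 14, 2 and 8, and its libraries overlapped. Nlrx1, a mitochondrial family member described as a restraint on antiviral signalling, reached the filter only through Pdk4SMKO and could only come out higher. It was read 2, 9 and 4 times in Pdk4fl/fl and 210, 130 and 130 times in Pdk4SMKO (log2 fold change 4.50, SE 0.41, edgeR's quasi-likelihood test, Benjamini-Hochberg adjusted p = 3.4e-06). Its p-value is thus no support for the direction. Nlrc3, likewise described as a restraint, measured 28.8 ± 2.85 and 19 ± 4.51 CPM (SD, n = 3) and was not called.

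In the MAVS branch neither Mavs nor Tbk1 passed the limit, and the inducible kinase rose. Mavs, the mitochondrial platform for RNA sensors, measured 60.2 ± 1.61 and 43.6 ± 2.69 CPM, and Tbk1 62.7 ± 2.68 and 48.4 ± 1.23 CPM (SD, n = 3). Their log2 fold changes were -0.47 and -0.37, under the limit of a fold change of 2, and 0.14 and 0.23 with library size alone, so their direction depends on the scaling. Ikbke, which encodes the inducible partner IKKε, rose from 4.6, 6.03 and 4.39 CPM to 33.6, 24.8 and 27.4 CPM (log2 fold change 2.51, SE 0.20, edgeR's quasi-likelihood test, Benjamini-Hochberg adjusted p = 1.2e-06). The log2 ratio of Ikbke to Tbk1 per kb rose within libraries from -5.37, -4.99 and -5.34 to -2.06, -2.56 and -2.41, and Tbk1 stayed the more abundant kinase in all 6 libraries.

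Of the 3 subunits of the IKK complex 1 rose, 1 fell and 1 was not called. Ikbkg, the regulatory subunit NEMO, was read 408, 471 and 481 times in Pdk4fl/fl and 3917, 3928 and 3933 times in Pdk4SMKO (log2 fold change 2.65, SE 0.16, edgeR's quasi-likelihood test, Benjamini-Hochberg adjusted p = 1.8e-07). Chuk, the kinase IKKα, fell from 113 ± 2.86 to 55.4 ± 5.56 CPM (SD, n = 3), with a log2 fold change of -1.03 (SE 0.12, edgeR's quasi-likelihood test, Benjamini-Hochberg adjusted p = 2.2e-05). This call sits at the limit, and at -0.94 it was lost without Pdk4SMKO replicate 2. Ikbkb, the kinase IKKβ, measured 97.4 ± 6.99 and 62.4 ± 3.41 CPM and was not called at a log2 fold change of -0.64. Both kinases were lower in every Pdk4SMKO library under the scaling used here. With library size alone the log2 fold changes were -0.42 for Chuk and -0.04 for Ikbkb, so the fall of Ikbkb depends on the scaling. The log2 ratio of Ikbkb to Chuk differed by 0.39 between genotypes.

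Of the kinase TAK1 and its partners, 1 of 4 genes was called. Tab1, an activating partner, rose from 9.26, 11.5 and 9.98 CPM to 31.2, 38.2 and 33 CPM (log2 fold change 1.73, SE 0.16, edgeR's quasi-likelihood test, Benjamini-Hochberg adjusted p = 3.4e-06). Map3k7, which encodes TAK1, measured 59 ± 1.21 and 99.7 ± 5.75 CPM (SD, n = 3), at a log2 fold change of 0.76, and 1.36 with library size alone. Tab2 and Tab3 encode the ubiquitin-binding partners. Tab2 measured 141 ± 10.7 and 91.6 ± 5.65 CPM (SD, n = 3), at a log2 fold change of -0.62, and -0.01 with library size alone. Tab3 measured 21.9 ± 1.46 and 21.5 ± 4.99 CPM with overlapping libraries.

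**Figure D5:**
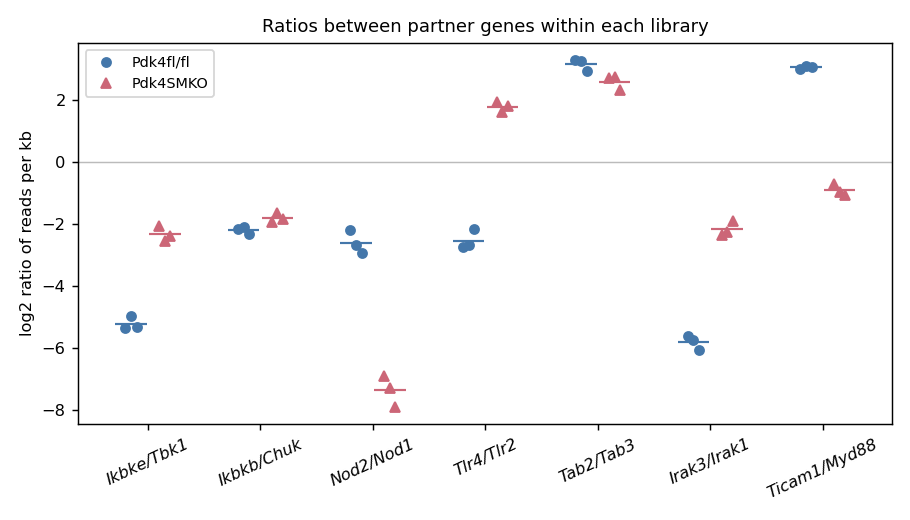
Log2 ratio of reads per kb between partner genes in each library, for 7 pairs, with Pdk4fl/fl as circles, Pdk4SMKO as triangles and the mean of 3 libraries as a bar. The ratios of Tlr4 to Tlr2 and of Ticam1 to Myd88 cross 0 between genotypes, and that of Ikbkb to Chuk moves by 0.39.

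Ratios between genes of the same library do not depend on how libraries are scaled. For 8 pairs the genotypes did not overlap. Each had an exact two-sided permutation p of 0.1 and 0.1 after adjustment over the pairs, the smallest value possible. In Ikbke to Tbk1, Nod2 to Nod1, Tlr2 to Tlr6, Tlr4 to Tlr2 and Ticam1 to Myd88 the partners already lay apart in opposite directions. Their ratios could then not overlap, and the p was fixed in advance. Of all genes tested, taken singly, the genotypes also did not overlap in 38.3% with Pdk4SMKO below and in 43.5% with Pdk4SMKO above. Lying apart is thus not particular to these genes, and no such share was computed for ratios. The log2 ratio of Tlr4 to Tlr2 changed from -2.54 ± 0.32 to 1.77 ± 0.16 (SD, n = 3), a shift of 4.31 that stayed between 4.21 and 4.50 when any library was left out. The ratio of Tab2 to Tab3 fell by 0.57. Tlr2 to Tlr6, computed with 1 count added because Tlr6 is at 0 in 1 library, went from 9.86 to 3.39.

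A further 7 tested members with an adjusted p under 0.05 missed the limit of a fold change of 2. Of these Irak2 and Map3k7 were higher, and Nlrc3, Mavs, Tbk1, Ikbkb and Tab2 lower. Under scaling by library size alone Nlrc3, Mavs and Tbk1 changed sign, and Ikbkb and Tab2 had log2 fold changes of -0.04 and -0.01. With library size alone, which shifted all log2 fold changes by a median of 0.60, 17 members were called higher and 3 lower, and over all genes 6184 higher and 2390 lower.

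Other genes of the same pathways were taken from a list of 77 genes, of which 73 have a row and 54 were tested. Of these, 14 fell (25.9%) and 19 rose (35.2%), near the 26.5% and 32.8% of all genes tested, and their median log2 fold change was -0.08. Dhx58, Rnf135, Sarm1 and Naip2 are among the 19 and reached the filter only through Pdk4SMKO. Among RNA and DNA sensors of the cytosol, 8 of 16 rose (50%), Dhx58 and Rnf135 among them, and 1 fell (6.25%). Rnf135, the ubiquitin ligase known as Riplet that activates RIG-I, went from 0.367 ± 0.208 to 9.79 ± 1.13 CPM (SD, n = 3; log2 fold change 4.72), and Dhx9, an RNA helicase, from 575 ± 20.8 to 244 ± 17 CPM (log2 fold change -1.24). Among helpers of Toll-like receptors, 4 of 8 tested rose (50%), Sarm1 among them, and 2 fell (25%). Unc93b1, the chaperone that carries Tlr3, Tlr7 and Tlr9 to endosomes, rose from 0.604 ± 0.263 to 43.6 ± 8.83 CPM (log2 fold change 6.20), in the same direction as Tlr3 and Tlr7. Tollip, an inhibitor of IRAK signalling, fell from 745 ± 43.6 to 60 ± 0.671 CPM (log2 fold change -3.63).

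Of 22 ubiquitin ligases, deubiquitinases and scaffolds of the NF-kB routes, 9 were lower (40.9%, against 26.5% of all genes tested) and 3 higher (13.6%, against 32.8%). Birc3, the ligase cIAP2 that acts with Ripk2, fell from 340 ± 28.5 to 12.3 ± 1.84 CPM (SD, n = 3; log2 fold change -4.78), and its relative Xiap, also used by Nod2 and Ripk2, rose from 15.7 ± 1.66 to 102 ± 15.4 CPM (2.70). Of the further NOD-like receptor and inflammasome genes 5 of 15 were tested, with 3 higher (60%), Naip2 among them, and 1 lower (20%). Nlrc5, a regulator of antigen presentation genes, fell from 2.01 ± 0.546 to 0.725 ± 0.366 CPM (log2 fold change -1.46) and Card6 rose from 7.53 ± 1.68 to 20.3 ± 3.42 CPM (1.42). Of 3 tested interferon regulatory factors, Irf3, the target of Tbk1 and IKKε, rose from 6.8 ± 0.748 to 18.9 ± 2.41 CPM (1.48) and Irf5, a target of the MyD88 route, fell from 28.8 ± 1.56 to 5.22 ± 1.52 CPM (-2.46).

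Markers of other cell types moved with genotype. In bulk RNA, fewer cells of a type and less RNA per cell cannot be told apart. Of 10 macrophage markers found, 6 were at 0 in every Pdk4fl/fl library and 7 of 8 tested were higher in Pdk4SMKO, while Cd68 was lower. Those 7 reached the filter only through Pdk4SMKO. The summed level of the 10 markers was 21.5 to 38 CPM in Pdk4fl/fl and 14.6 to 47.5 CPM in Pdk4SMKO, but most of it in Pdk4fl/fl was Cd68, and without Cd68 it was 0.133 to 0.439 and 11.6 to 40.7 CPM. Lyz2, found by description, was at 0.266, 0.549 and 0.0756 CPM in Pdk4fl/fl and 88.1, 32.8 and 28.2 CPM in Pdk4SMKO, and the sum of the list with it was 21.6 to 38.2 and 42.8 to 136 CPM. Csf1r had 2, 4 and 2 counts against 132, 49 and 32, C1qa 0 in every Pdk4fl/fl library against 125, 58 and 35, and the leukocyte gene Ptprc 0, 1 and 0 against 33, 2 and 5. Macrophages also express sensing genes, Cd14, Tlr7 and Tlr8 among them, and the part of these markers in the rises and falls was not tested. The macrophage markers were highest in Pdk4SMKO replicate 1, at 2.18 to 8.4 times the mean of the other 2 Pdk4SMKO libraries. The same ratio was 0.617 for Cd14, 0.869 for Tlr7 and 3.54 for Tlr8. It had a median of 0.962 over the 32 sensing genes counted in every Pdk4SMKO library, and was 2.18 or more in 2, Tlr8 and Pycard. Without that replicate all 20 calls stood, but the other 2 Pdk4SMKO libraries also held these markers. Leaving it out therefore does not test the part of the markers.

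Fibroblast markers summed to 628 to 858 CPM in Pdk4fl/fl and 5150 to 7049 CPM in Pdk4SMKO, mostly Col1a1, and without Col1a1 to 123 to 150 and 283 to 613 CPM. Of the 8 fibroblast markers 4 were higher, Dpt was lower (log2 fold change -1.02) and 3 were not called. Mesothelial markers summed to 74.2 to 99.9 CPM in Pdk4fl/fl and 722 to 1323 CPM in Pdk4SMKO. Of these, 7 of 7 tested were higher (100%, against 32.8% of all genes tested), and 1 was not tested. However, 4 of the 7 reached the filter only through Pdk4SMKO and could only come out higher. Smooth muscle markers summed to 789 to 815 CPM in Pdk4fl/fl and 738 to 973 CPM in Pdk4SMKO, but single markers moved both ways. Of these 10 markers 6 were higher (60%), 3 lower (30%) and 1 not called. Only 1 of the 10 reached the filter through Pdk4SMKO alone. Endothelial markers summed to 14.1 to 23.7 CPM in Pdk4fl/fl and 2.93 to 5.61 CPM in Pdk4SMKO. Lymphocyte markers summed to 4.01 to 4.88 CPM in Pdk4fl/fl and 0.049 to 0.0877 CPM in Pdk4SMKO, nearly all of it Cd79a (65, 89 and 53 counts against 1 in each), and neutrophil markers to at most 0.549 CPM in any library. The part of these markers in the differences above was not tested.

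Some members share their place in the genome with another gene, and whether counting used strand is not given in the sources used here. Ikbkg overlaps G6pdx on the opposite strand, which was read 264, 262 and 256 times in Pdk4fl/fl and 2243, 1858 and 2118 times in Pdk4SMKO. Irak4 overlaps Twf1 on the opposite strand, with 216, 267 and 240 against 3515, 3694 and 4406 counts, and Myd88 overlaps an unnamed gene with 249, 268 and 317 against 1064, 986 and 806. These 3 neighbours were called higher, like the members they overlap, so the rises of Ikbkg, Irak4 and Myd88 are uncertain to the extent that reads were shared. Tirap and Ticam2 overlap genes that were not called. Of the 36 genes 10 overlap a gene with more than 3 counts in some library.

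Tlr7, Tlr8, Irak1, Ikbkg and Tab3 lie on the X chromosome. Of the 4 tested, 2 were higher, with a median log2 fold change of 1.40, against 144 higher and 134 lower of 466 tested X genes and a median of -0.03. Xist, the RNA that silences an X chromosome in female cells, had 3, 4 and 5 counts in Pdk4fl/fl and 610, 347 and 321 in Pdk4SMKO. The counts in Pdk4SMKO go against the male sex that the methods give for all mice. The part of sex in these values was not tested.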

How the data were processed

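RNA was sequenced from 3 Pdk4fl/fl and 3 Pdk4SMKO cultures of Ang II-treated MASMCs, grouped by the genotype label. The authors deposited a table of raw counts per gene, unnormalized, with symbols, positions, strands and lengths. Its identifiers are those of the C57BL/6NJ strain assembly, while the labels name GRCm39. The labels name a SMARTER library kit and the study's methods an NEBNext kit. Aligner, counter and strand setting are not given in the sources used here.

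Counts were tested with edgeR 4.0.16 in R 4.3.3 (filterByExpr, TMM, quasi-likelihood F-test, Benjamini-Hochberg over 14085 genes), in place of the DESeq2 of the study. Its fold change limit of 2 was kept, and its p limit of 0.05, stated for a P-value beside a Benjamini-Hochberg correction, was applied to the adjusted p. CPM use TMM-scaled totals, and levels per kb divide CPM by the table's gene length. Orders and ratios between genes rest on these lengths. Single values were compared by exact permutation over libraries (scipy 1.17.1). A count of 0 allows up to 3 counts, 0.131 to 0.227 CPM per library, and intervals and floors cover counting error only. Alternatives were DESeq2 1.42.0, other scalings, other filters, other thresholds, a replicate block and leaving out each library. Scripts were tested on simulated data. The members, gene lists and markers were chosen with earlier results of these data known. Named genes were all members and Pdk4, and in each further pathway list the called gene with the largest fall and the largest rise among those whose higher genotype averaged 1 CPM or more and whose genotypes did not overlap. Other genes are named as defining markers or for their overlap. Lyz2 carries no symbol in the table, and its 2 rows were found by their description and summed.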

Additional observations from a re-analysis of the deposited data

How the results depend on the processing

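Of the fold changes of the members, 190 of 205 kept their direction and their side of the threshold across the alternatives other than leaving out a library, and 187 of 192 across the fits that left out a library. Scaling by library size alone reversed Ly96 (log2 fold change 0.05), Nlrc3 (0.02), Mavs (0.14), Tbk1 (0.23) and Tab3 (0.58). Tab3 also changed sign with at least 10 counts in every library (0.08), no filter (0.02) and upper-quartile factors (0.19), and ranged from -0.22 to 0.08 when a library was left out, and Pycard from -0.74 to 0.08. The call of Chuk was lost with at least 10 counts in every library (-0.93), library size alone (-0.42), no filter (-0.98) and upper-quartile factors (-0.82). Members called lower numbered 5, but 3 under the filter of 10 counts per library (which removes Nod2 from the test), 3 with library size alone, 10 by adjusted p alone and 3 at an adjusted p under 0.01 with a fold change of 4. Other pathway genes called lower numbered 14, and 9 with library size alone and 5 at the stricter threshold, and those called higher 19, and 9 at the stricter threshold. DESeq2 called 5 members lower and 15 higher. Leaving out a library gave 5 to 7 members lower and 15 higher, and a log2 fold change of Pdk4 of -2.57 to -2.12. Upper-quartile factors shifted all log2 fold changes by a median of 0.21. The causes were not tested.

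Replicate numbers are shared between genotypes, and same-numbered libraries correlated in their deviations at 0.0396, 0.0604 and 0.176, so the numbers were not taken to pair the libraries. A fit with the replicate number as a block gave 5 members lower and 15 higher, with 14 and 19 of the other pathway genes and 3704 lower and 4577 higher over all genes.

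Low counts limit what can be said of Tlr8, Tlr9, Ticam2, Nlrp3, Aim2 and Pycard, which were under the filter. For Ticam2, which overlaps Tmed7 on the same strand, the part of reads lost to the overlap was not tested.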
